A study of Bos taurus with 24 samples.

Results

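The enzymes and binding proteins that write, remove and read DNA methylation were followed in single bovine early blastocysts. Of 24621 genes listed in the count table, 10 were taken by their symbols, chosen for what their products do. They are the methyltransferases DNMT1, DNMT3A and DNMT3B, the DNMT1 partner UHRF1, the dioxygenases TET1, TET2 and TET3, the glycosylase TDG, the methyl-CpG binding family protein MBD3 and the co-repressor TRIM28. All 10 were found in the table, and 8 had enough counts to be tested against in vivo derived embryos.

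In mammals the methyl group sits on cytosines that precede a guanine. DNMT3A and DNMT3B place it on unmethylated DNA, whereas DNMT1, brought to the replication fork by UHRF1, copies it onto the new strand after each round of replication. TET enzymes oxidise the methylated base, TDG excises the oxidised products, and base excision repair restores an unmethylated cytosine. The early embryo is known for losing most of the methylation of the gametes during cleavage and for setting it again around and after the blastocyst stage, while imprinted regions are held methylated by a zinc finger protein complex that includes TRIM28.

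Each of the 24 libraries came from 1 whole Holstein early blastocyst of the best morphological grade. The 8 in vivo derived embryos (5 male, 3 female) came from 3 superovulated cows. The 8 serum embryos (3 male, 5 female) came from oocytes matured with 20% fetal bovine serum and were cultured as zygotes with 5% of it. The 8 serum-free embryos (5 male, 3 female) came from oocytes matured with epidermal growth factor at 20 ng/mL and were cultured with 0.4% bovine serum albumin and insulin, transferrin and selenium. Semen of the same bull was used throughout. In vitro embryos were collected on day 6 to 7 after insemination in 3 experiments, and in vivo derived embryos were flushed on day 7. The labels name neither the cow, the experiment nor the sequencing lane of an embryo. Values within these batches could therefore not be given, and the p-values measure the spread between embryos of which some shared a dam or a day.

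The libraries held 3253051 to 9000447 exon counts. The Y-linked DDX3Y and the X-inactivation transcript XIST separated the labelled sexes with no overlap in counts. The study had assigned sex by RT-PCR of DDX3Y on RNA of these embryos, so only XIST is a separate check of the labels. Of the 8 serum embryos, 4 stood apart from the other embryos: the median correlation of log2 expression with the others was 0.706 in B2, 0.807 in B5, 0.811 in B3 and 0.822 in B7, against at least 0.873 elsewhere. Members, gene lists and markers in serum are also given without these 4 embryos. Levels are TMM-normalized counts scaled to a common library total (CPM), which are not corrected for gene length, so levels were compared between embryos and not between genes. Fold changes are culture over in vivo, on the log2 scale with their approximate standard error (SE), unless stated otherwise.

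In serum embryos, 6 of the 8 members tested differed from in vivo derived embryos at an adjusted p under 0.05. DNMT1, UHRF1 and TRIM28 were higher, and DNMT3A, DNMT3B and TDG were lower, the last 3 by over 4-fold. Across all 7339 genes tested, 28.3% passed the same test, 14.8% as higher and 13.4% as lower in serum. With the limit of a 2-fold change added, 4 of the members passed, against 13.8% of all genes. The members were not a random draw of genes, and DNMT3A, DNMT3B, TDG and TET2 met the limit of 15 counts in every embryo only through the in vivo group, so no test of the share was made. In serum-free embryos, 2 of the 8 members passed, DNMT1 and UHRF1, both higher, where 5.82% of 7314 genes passed and 3.38% were higher. UHRF1 also met the 2-fold limit there, as 2.2% of all genes did, and DNMT1 did not. The 2 comparisons shared their in vivo derived embryos.

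**Figure D1:**
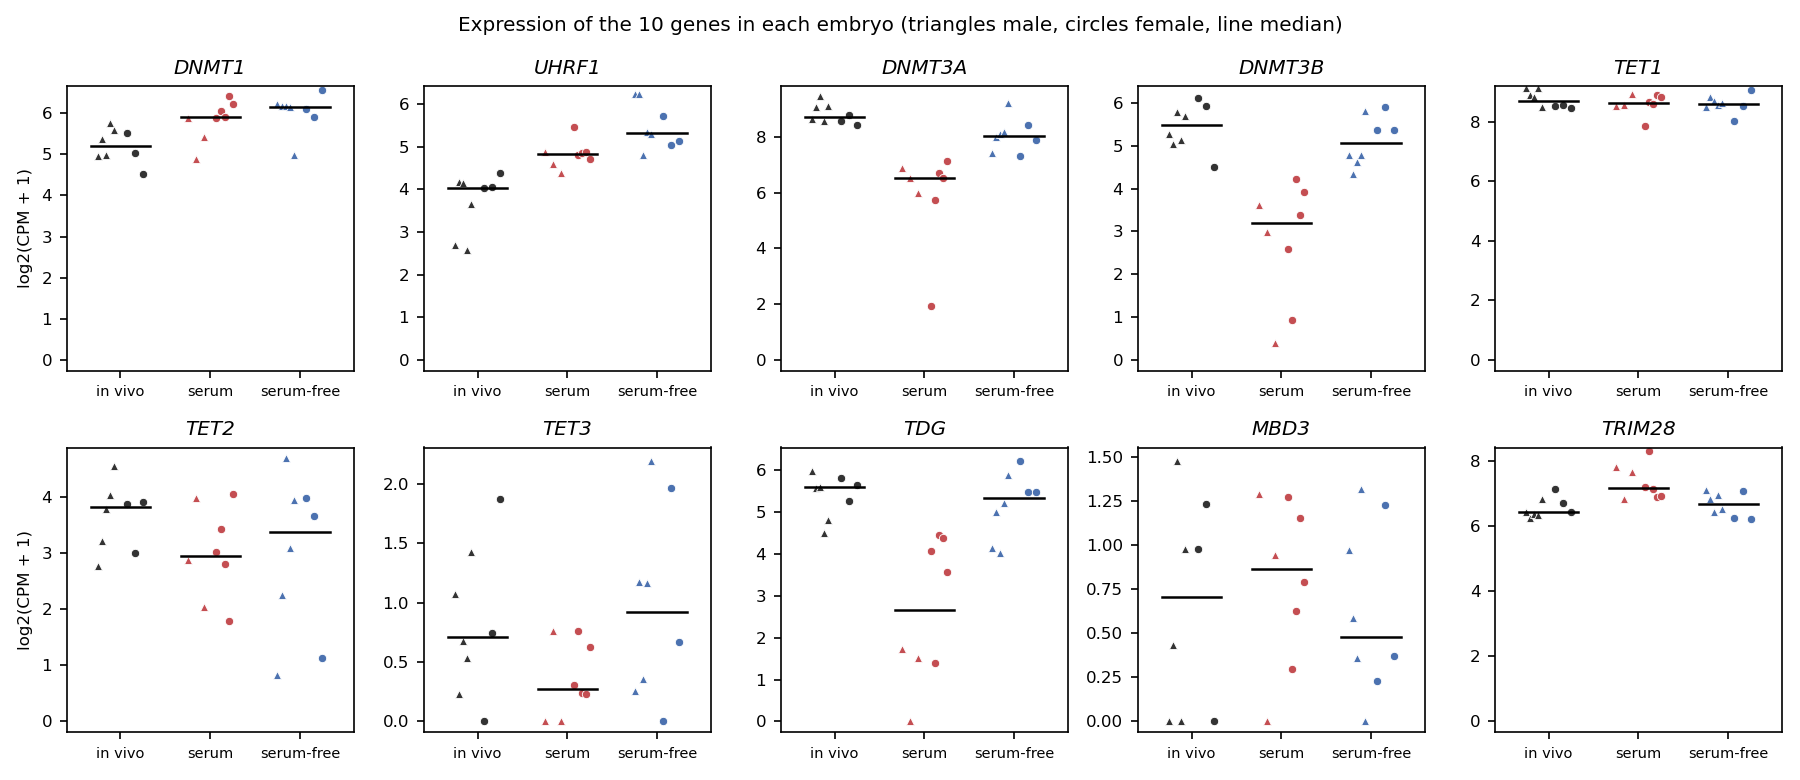
Expression of each of the 10 genes in the 24 embryos, as log2(CPM + 1) on a separate vertical axis per gene, with in vivo derived, serum and serum-free embryos along the horizontal axis. Triangles are male embryos, circles female embryos and lines medians; the serum embryos lie below all in vivo derived embryos for DNMT3A, DNMT3B and TDG and above them for UHRF1.

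UHRF1, which binds hemimethylated DNA and recruits DNMT1, had its lowest level in embryos derived in vivo and its highest in serum-free medium. In vivo derived embryos ranged from 4.98 to 19.9 CPM with a median of 15.4. The serum embryos ranged from 20.1 to 43.3 CPM with a median of 27.6, and the serum-free embryos from 27.2 to 74.8 CPM with a median of 39.2. Neither range in culture overlapped that of the in vivo derived embryos, as was the case for 7% of all genes with serum and 0.943% without. The change was 1.06 with serum (SE 0.29, adjusted p = 0.0112), which is 2.08-fold, and 1.80 without serum (SE 0.30, adjusted p = 0.00152), which is 3.48-fold. In the serum-free comparison 99.4% of the genes tested had a smaller change in either direction. UHRF1 was lower in serum than in serum-free embryos by 1.67-fold (log2 -0.74, SE 0.25, adjusted p = 0.0467), with overlapping ranges, but this call held in 3 of the 16 fits that left out 1 embryo.

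DNMT1, the maintenance methyltransferase itself, followed UHRF1 with a smaller change. Its level was 21.8 to 52.9 CPM in vivo (median 36.1), 28.4 to 85.2 CPM in serum (median 58.7) and 30.5 to 93.3 CPM in serum-free embryos (median 70.6). All 3 ranges overlapped, the lowest serum embryo being B5 and the lowest serum-free embryo C7. With serum the change was 0.64 (SE 0.23, adjusted p = 0.0441). That call was lost in 9 of the 16 fits without 1 embryo, where the adjusted p reached 0.0910, and with sex as a covariate (adjusted p = 0.10). In serum-free embryos the change was 0.85 (SE 0.21, adjusted p = 0.0229) and the call held in all 16 such fits. No difference of DNMT1 between the media was detected, with a serum over serum-free change of -0.20 (95% interval -0.69 to 0.28, adjusted p = 0.564).

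The de novo methyltransferases were both lower in serum. DNMT3A ranged from 348 to 699 CPM in vivo, with a median of 420. In serum it ranged from 2.84 to 138 CPM with a median of 90.2, and in serum-free medium from 158 to 598 CPM with a median of 263. No serum embryo reached the level of any in vivo derived or serum-free embryo. Groups also did not overlap for 7% of all genes against in vivo and for 2.38% between the media. The reduction in serum was 5.73-fold (log2 -2.52, SE 0.41, adjusted p = 0.000394), and 98.3% of the genes tested had a smaller change. DNMT3A was also lower in serum than in serum-free embryos, by 3.59-fold (log2 -1.84, SE 0.44, adjusted p = 0.0117).

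In serum-free embryos DNMT3A was 1.60-fold lower than in vivo, which missed the limit (log2 -0.68, SE 0.22, adjusted p = 0.0718). The value depended on 1 embryo and on the test. Male C7 had 598 CPM, where the other 7 serum-free embryos had at most 346, and without it the change was -0.91 (adjusted p = 0.00398). The exact test of edgeR and DESeq2 gave adjusted p-values of 0.0404 and 0.0386 with all embryos.

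DNMT3B, the second enzyme that sets methylation on unmethylated DNA, ranged from 21.8 to 67.9 CPM in vivo with a median of 43.9. The serum embryos lay between 0.309 CPM in B7, which had 1 count, and 17.7 CPM in B4, with a median of 8.20. The serum-free embryos lay between 19.4 and 59.0 CPM with a median of 33.3, within or just under the range in vivo. DNMT3B was 5.44-fold lower in serum than in vivo (log2 -2.44, SE 0.49, adjusted p = 0.00176) and 4.45-fold lower than in serum-free embryos (log2 -2.15, SE 0.51, adjusted p = 0.0115). In both cases the groups did not overlap, nor did they for 7% of all genes against in vivo and 2.38% between the media. Between serum-free and in vivo derived embryos the change was -0.30 (95% interval -0.84 to 0.25, adjusted p = 0.559).

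The 4 serum embryos that stood apart included the lowest values of both genes, 12 counts of DNMT3A in B2 and 1 of DNMT3B in B7. Without B2, B3, B5 and B7, DNMT3A was still lower in serum than in vivo by 2.07 on the log2 scale (log2 -2.07, SE 0.20, adjusted p = 9.56e-06). DNMT3B then differed by -1.77 (SE 0.31, adjusted p = 0.00109), a fold over 1.5 times smaller than with all embryos. UHRF1, DNMT1, TDG and TRIM28 also kept their calls in that fit, with changes of 1.03, 0.87, -1.67 and 0.65. Of the serum embryos in that fit only B1 was male, whereas most in vivo derived embryos were male. TRIM28 changed by 0.21 in the females (adjusted p = 0.541) and by 1.33 in B1, each against in vivo derived embryos of that sex. For DNMT1 these changes were 1.15 and 0.49.

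**Figure D2:**
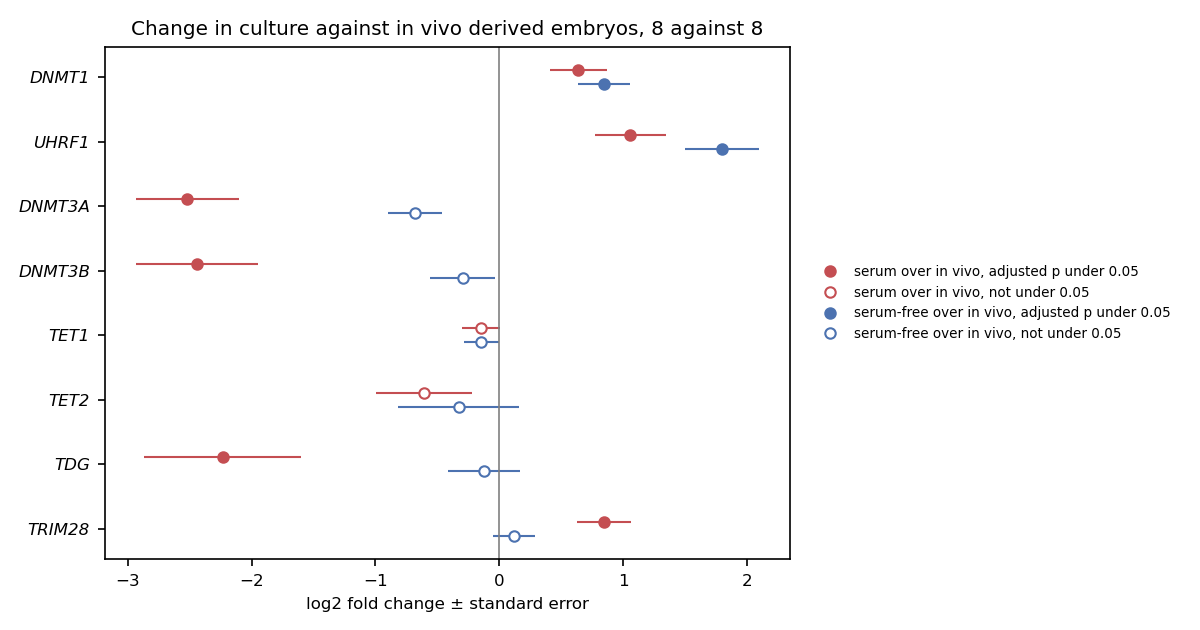
Log2 fold change of the 8 tested members in serum and in serum-free embryos over in vivo derived embryos, 8 against 8, with horizontal bars of 1 standard error. Filled points passed an adjusted p of 0.05; DNMT3A, DNMT3B and TDG lie beyond -2 with serum, and only DNMT1 and UHRF1 passed without serum.

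TET1, the first of the oxidising enzymes, differed in none of the comparisons between conditions beyond the spread of the embryos. It ranged from 347 to 558 CPM in vivo (median 413), from 228 to 486 CPM in serum (median 393) and from 260 to 535 CPM in serum-free embryos (median 380). The change was -0.15 with serum (95% interval -0.48 to 0.18, adjusted p = 0.496) and -0.14 without (95% interval -0.43 to 0.14, adjusted p = 0.597). The change between the media was -0.0018 (95% interval -0.34 to 0.34, adjusted p = 0.994).

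TET2, a relative of TET1 that lacks its DNA-binding CXXC domain, was measured with less precision. Its level was 5.79 to 22.3 CPM in vivo, 2.45 to 15.5 CPM in serum and 0.768 to 24.7 CPM in serum-free embryos, with medians of 13.2, 6.72 and 9.59. The ranges overlapped throughout. Neither the change with serum (-0.61, 95% interval -1.41 to 0.20, adjusted p = 0.243) nor that without (-0.33, 95% interval -1.35 to 0.69, adjusted p = 0.752) passed. Within serum-free embryos TET2 was among the most variable genes, with an SD of 1.41 on the log2 scale that exceeded that of 97.6% of 8710 genes. It had 4 counts in each of C1 and C10, and the genes were not matched by level.

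TET3, the enzyme of the family that is known to act in the zygote, had at most 14 counts in any embryo. There were 0 to 11 counts in vivo, 0 to 6 in serum and 0 to 14 in serum-free embryos, and 1, 2 and 1 embryos at 0. It was below the limit for testing, so a difference was not detectable at this depth.

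TDG, the glycosylase that removes oxidised methylcytosine, was lower in serum embryos and not in serum-free embryos. In vivo derived embryos ranged from 21.7 to 61.8 CPM with a median of 46.8, and serum-free embryos from 15.3 to 73.6 CPM with a median of 39.4. The serum embryos ranged from 0 to 20.8 CPM with a median of 6.62, all below the lowest in vivo derived embryo. These groups did not overlap for 7% of all genes. The reduction was 4.71-fold (log2 -2.23, SE 0.64, adjusted p = 0.0137), larger than that of 97.8% of the genes tested. It was larger still with sex as a covariate (log2 -3.14, adjusted p = 0.00407) and in a single fit over all 24 embryos (log2 -3.42, adjusted p = 0.000107). Against serum-free embryos TDG was 4.35-fold lower in serum (log2 -2.12, SE 0.67, adjusted p = 0.0371). Here the ranges overlapped and the call held in 7 of 16 fits without 1 embryo. In serum-free embryos the change from in vivo was -0.12 (95% interval -0.73 to 0.48, adjusted p = 0.854).

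The TDG counts of the serum embryos were uneven. Male B1, B5 and B7 had 8, 0 and 6 counts, and female B3 had 7. The female embryos B2, B4, B6 and B8 had 66, 114, 112 and 60 counts. The 0 in B5 was found among 9000447 counts, the deepest library, which allows a share of up to 3.33e-05% of its counts (3 counts, counting error only).

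TRIM28, the co-repressor that zinc finger proteins bring to imprinted regions and transposable elements, was higher in serum. It ranged from 75.8 to 140.1 CPM in vivo (median 86.0), from 114 to 318 CPM in serum (median 144) and from 73.2 to 137 CPM in serum-free embryos (median 103). In vivo derived A6 lay among the serum embryos, so the groups overlapped. The change with serum was 0.85 (SE 0.22, adjusted p = 0.00756), which is 1.80-fold, and it held in all 16 fits without 1 embryo. Without serum it was 0.12 (95% interval -0.23 to 0.47, adjusted p = 0.734). TRIM28 was 1.65-fold higher in serum than in serum-free embryos (log2 0.72, SE 0.23, adjusted p = 0.0358), a call that held in 9 of 16 such fits. Within females alone, the change of TRIM28 with serum from in vivo did not pass (log2 0.64, SE 0.37, adjusted p = 0.343).

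MBD3, a subunit of the NuRD chromatin remodelling complex, had 0 to 9 counts in vivo, 0 to 7 in serum and 0 to 6 in serum-free embryos. With 3, 1 and 1 embryos at 0 it was not tested, and a difference was not detectable.

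Between the media, 5 of 7 members tested passed, where 16.3% of 7181 genes did. DNMT3A, DNMT3B and TDG also met the 2-fold limit, as 8.91% of all genes did. They met the limit of 15 counts in every embryo only through the serum-free group, so no test of the share was made. DNMT3A and DNMT3B were the ones whose ranges did not overlap, as was the case for 2.38% of all genes, and they kept their calls in all 16 fits without 1 embryo. Without the 4 serum embryos that stood apart, these 2 genes still passed and UHRF1, TDG and TRIM28 did not.

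The balance of DNMT3A and DNMT3B to DNMT1 was read as a ratio of counts within each embryo, which needs no normalization between libraries but also depends on the length of each gene. For DNMT3A the ratio was 7.20 to 22.8 in vivo (median 13.2), 0.0492 to 3.17 in serum (median 1.60) and 2.33 to 19.6 in serum-free embryos (median 3.67). The ratio of DNMT3B to DNMT1 was 0.645 to 1.89 in vivo (median 1.16), 0.00735 to 0.298 in serum (median 0.151) and 0.270 to 1.80 in serum-free embryos (median 0.407). All serum embryos lay below all in vivo derived embryos in both ratios. In the 4 serum embryos that did not stand apart the ratios were 1.06 to 2.02 and 0.111 to 0.298. The ratio of UHRF1 to DNMT1 overlapped between the conditions, with medians of 0.380, 0.476 and 0.667. These ratios combine values already compared above and were given no test of their own.

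**Figure D3:**
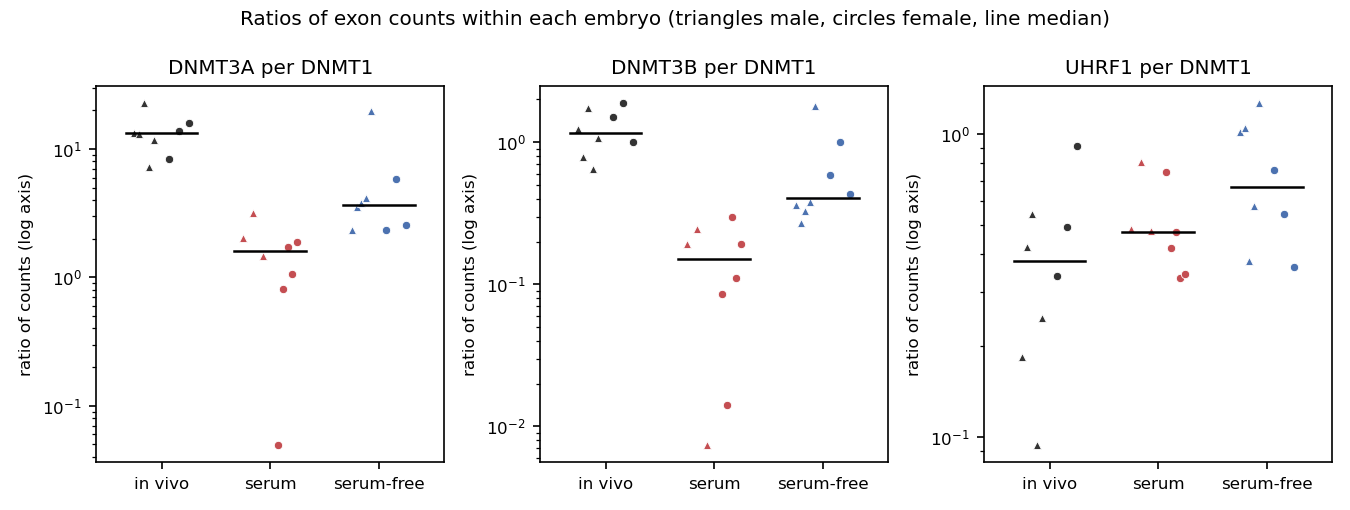
Ratio of exon counts within each embryo for DNMT3A, DNMT3B and UHRF1 over DNMT1, on log axes, by condition, with triangles for male and circles for female embryos and lines at the medians. The serum embryos lie below all in vivo derived embryos in the first 2 panels, with medians of 1.60 against 13.2 and 0.151 against 1.16, while the groups overlap in the third.

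The members also differed in how much embryos of 1 condition varied. In serum, DNMT3A, TDG and DNMT3B had SDs of 1.67, 1.68 and 1.39 on the log2(CPM + 1) scale, exceeding those of 96.5%, 96.6% and 91.6% of 8710 genes. UHRF1 and TET1 were among the steadiest, with SDs of 0.31 and 0.35 that exceeded those of 8.52% and 12.5% of genes. The SD of DNMT3A rested on B2: without it the SD was 0.49, exceeding that of 39.9% of genes, whereas those of TDG and DNMT3B still exceeded 98.3% and 96.6%. Without B2, B3, B5 and B7 that of DNMT3B was 0.36, exceeding 44.5% of genes, and that of TDG 1.26, exceeding 96.9%. Of the embryos left, male B1 had 2.31 CPM of TDG, from 8 counts, and the females had 10.9 to 20.8 CPM. Genes were not matched by level, and TDG and DNMT3B had minima of 0 and 1 counts in serum. The median SD over all genes was 0.41 in vivo, 0.66 in serum and 0.50 in serum-free embryos. In vivo, DNMT3A had an SD of 0.35 and TDG of 0.50, exceeding those of 39.0% and 63.4% of genes.

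Because serum embryos were mostly female and the others mostly male, each medium was also compared with in vivo derived embryos within a sex. In males, 3 serum against 5 in vivo derived embryos, 4 members passed where 19% of 7762 genes did. DNMT3B, TDG and TET2 met the count limit there only through the in vivo group. DNMT3A was at 118, 90.2 and 61.7 CPM in serum males against 381 to 699 CPM in vivo (log2 -2.53, SE 0.28, adjusted p = 0.000501). DNMT3B was at 11.3, 6.94 and 0.309 CPM against 31.8 to 53.7 CPM (log2 -2.74, SE 0.67, adjusted p = 0.0155). The male groups did not overlap for these genes, nor did they for 26.2% of all genes. TDG was at 2.31, 0 and 1.85 CPM against 21.7 to 61.8 CPM (log2 -5.10, SE 0.87, adjusted p = 0.00306), and 99.5% of the genes tested had a smaller change. Its size moved with the males in the fit, from -4.27 without B5 to -6.02 without B1, and that of DNMT3B from -2.24 without B7 to -3.40 without B1. TRIM28 was at 228, 114 and 202 CPM against 75.8 to 113 CPM (log2 1.04, SE 0.24, adjusted p = 0.0138), and this call was lost without B7. UHRF1 was higher with no overlap but did not pass (log2 1.07, SE 0.48, adjusted p = 0.140), and DNMT1 was at 0.08 (SE 0.32, adjusted p = 0.885). Of the 3 serum males, B5 and B7 stood apart from the other embryos. Without them 1 serum male was left, assumed to vary like the in vivo derived males, and TDG (-4.18), DNMT3A (-2.17), DNMT3B (-1.93) and TRIM28 (1.33) passed with adjusted p-values of 0.00637 to 0.0305, where 9.52% of genes did.

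In females, 5 serum against 3 in vivo derived embryos, no member passed, where 0.418% of 8138 genes did, and 5 members had an unadjusted p under 0.05, as 21.1% of all genes did. DNMT3A, DNMT3B, TDG and TET2 met the count limit there only through the in vivo group. DNMT3A was at 2.84 to 138 CPM against 348 to 438 CPM (log2 -2.31, SE 0.74, adjusted p = 0.141). DNMT3B was at 0.922 to 17.7 CPM against 21.8 to 67.9 CPM (log2 -2.38, SE 0.71, adjusted p = 0.122). Both genes thus had a change of about the size in males. The SE was wider than in males for DNMT3A (0.74 against 0.28) and similar for DNMT3B (0.71 against 0.67). DNMT1 was at 57.7 to 85.2 CPM against 21.8 to 45.1 CPM (log2 1.07, SE 0.31, adjusted p = 0.117), and TDG at 1.61 to 20.8 CPM against 36.9 to 54.5 CPM (log2 -1.75, SE 0.60, adjusted p = 0.157). These genes and UHRF1 did not overlap between the female groups, nor did 22.7% of all genes. TRIM28 overlapped, at 120 to 318 CPM against 86.5 to 140 CPM (log2 0.64, SE 0.37, adjusted p = 0.343). The calls depended on the test, since edgeR's exact test called 2 members (DNMT3A and DNMT3B) and DESeq2 called 3 (these and DNMT1). They also depended on B2, without which DNMT3A (log2 -2.02, adjusted p = 0.00605) and DNMT1 (log2 1.10, adjusted p = 0.0452) passed. Without both females that stood apart, B2 and B3, 10.8% of genes passed, and so did DNMT3A (-1.81), DNMT3B (-1.85), TDG (-1.45) and DNMT1 (1.15), with adjusted p-values of 0.000584 to 0.0266. TRIM28 was then at 0.21 (adjusted p = 0.541).

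**Figure D4:**
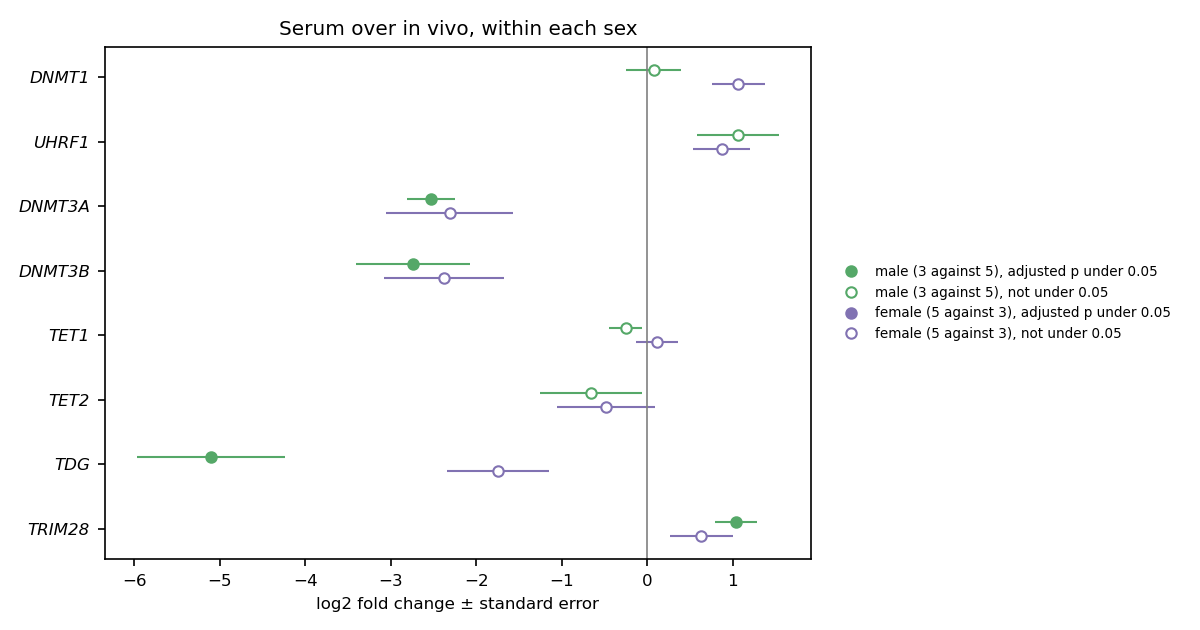
Log2 fold change of the 8 tested members in serum over in vivo derived embryos in males (3 against 5) and females (5 against 3), with horizontal bars of 1 standard error. Filled points passed an adjusted p of 0.05, as 4 members did in males, where 19% of all genes passed, and none in females, where 0.418% did. TDG is at -5.10 in males and -1.75 in females, and the difference between the sexes did not pass the adjustment.

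The difference between the sexes was tested itself as an interaction, the change with culture in males minus that in females. For TDG in serum it was -3.28 (SE 1.11), with an unadjusted p of 0.00891 and an adjusted p of 0.749, and for DNMT1 -0.96 (SE 0.43), with 0.0409 and 0.948. No gene of 8446 passed after adjustment, and 5.16% had an unadjusted p under 0.05, so a different response of the sexes was not shown for any member. Without B2, B3, B5 and B7, which left 1 serum male, 1.47% of 9095 genes passed and no member did, TRIM28 (1.17, adjusted p = 0.0716) and TDG (-2.69, adjusted p = 0.0893) coming nearest. In serum-free medium 0 of 8425 genes passed, and no member had an unadjusted p under 0.05, as 6.59% of genes did.

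UHRF1 was the member that passed in serum-free males, where 1.76% of 7662 genes did (74.1, 74.8, 27.2, 40.0 and 38.4 CPM against 4.98 to 17.1 CPM; log2 2.20, SE 0.41, adjusted p = 0.0251). This call was lost when A1, A4, A8 or C2 was left out, and without C7 DNMT1 (log2 0.83, adjusted p = 0.0490) and DNMT3A (log2 -1.06, adjusted p = 0.0125) passed as well. In serum-free females no member passed, where 0.304% of 8211 genes did, and DNMT1, UHRF1 and DNMT3A had an unadjusted p under 0.05, as 14% of all genes did. DNMT1 was at 67.8, 59.0 and 93.3 CPM against 45.1, 31.5 and 21.8 CPM in female embryos in vivo (log2 1.16, SE 0.32, adjusted p = 0.168). DESeq2 called DNMT1 and UHRF1 in these females, and the exact test called DNMT1. Male and female embryos of the same condition differed in no member by edgeR's quasi-likelihood test, where 1.26%, 0.173% and 0.152% of genes passed in vivo, in serum and in serum-free medium. At an unadjusted p under 0.05 there were 2, 0 and 0 members, beside 13.5%, 6.24% and 8.01% of genes, and TDG, DNMT3B and TET2 were below the count limit in the serum comparison of the sexes. In a single fit over all 24 embryos TDG was lower in serum males than in serum females (log2 -3.51, SE 0.82, adjusted p = 0.0368).

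Cell type markers also differed between the conditions, though not only in the 4 serum embryos that stood apart. The trophectoderm sum described next was 1802 CPM in B3, which stood apart, and 1226 CPM in B4, which did not. The summed level of 8 trophectoderm markers, led by the keratin KRT8, was 7535 to 14810 CPM in vivo, 322 to 5203 CPM in serum and 5054 to 28244 CPM in serum-free embryos. Of the 6 tested in serum, 4 were lower, KRT8 by 3.05 on the log2 scale (log2 -3.05, SE 0.67, adjusted p = 0.00289), while TEAD4 (0.71, SE 0.32, adjusted p = 0.105) and TFAP2C (0.32, SE 0.22, adjusted p = 0.292) did not pass. CDX2 stayed at or below 2.48 CPM everywhere. Without the 4 embryos KRT8 was at -2.24 (adjusted p = 0.000826), and TEAD4 was higher in serum (0.97, adjusted p = 0.00366). DNMT3A was lowest in B2 and highest among serum embryos in B8, the embryos with the lowest and the highest trophectoderm sum in serum. Between these extremes the order was not shared, B5 and B6 having 90.2 and 90.3 CPM of DNMT3A with sums of 533 and 2803 CPM. TDG was at 15.6 CPM in B2, above the serum median. The serum-free embryo with the highest DNMT3A, C7, had the highest sum of all. The part of these cells in the levels of DNMT3A, DNMT3B and TDG was not tested, and in whole embryos fewer cells of a type and less RNA per cell cannot be told apart.

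The summed level of 5 inner cell mass markers was 438 to 586 CPM in vivo, 525.9 to 884 CPM in serum and 284 to 584 CPM in serum-free embryos. Of the 4 tested in serum, SOX2 was higher (1.25, SE 0.40, adjusted p = 0.0271). The other 3 did not pass and went both ways. KLF4 was at 0.60 (adjusted p = 0.0809), ESRRB at 0.37 (adjusted p = 0.0984) and POU5F1 at -0.55 (adjusted p = 0.0979). NANOG, which is part of the sum, was not tested and ranged from 1.15 to 226 CPM in serum. Without the 4 embryos that stood apart SOX2 did not pass (1.06, adjusted p = 0.0712). The 7 hypoblast markers summed to 351 to 603, 27.7 to 245 and 139 to 423 CPM, and SOX17 among them was at 0 in all embryos but 1 with 1 count. That sum was led by PDGFRA, which was lower in serum (-2.04, SE 0.38, adjusted p = 0.00101) and in serum-free medium (-1.01, adjusted p = 0.00952), while GATA6 (0.16, adjusted p = 0.709) and RSPO3 (-0.40, adjusted p = 0.627) did not pass in serum. Markers of cumulus or granulosa cells summed to at most 58.7 CPM and those of blood or uterine cells to at most 25.8 CPM. Spermatid markers reached 14.2 CPM, in serum embryo B2. Oocyte markers summed to 5.51 to 15.8 CPM in vivo, 5.46 to 172 CPM in serum and 19.6 to 113 CPM in serum-free embryos, with the highest in B2. Of these 8 markers only OOEP had enough counts to be tested. OOEP was higher in serum (log2 2.01, SE 0.52, adjusted p = 0.00779) and in serum-free medium (log2 2.33, SE 0.40, adjusted p = 0.00212). The untested markers went both ways in serum against in vivo, with means of 13.5 against 1.58 CPM for BMP15 and 0.782 against 1.52 CPM for GDF9. Without the 4 embryos the change of OOEP with serum did not pass (1.40, adjusted p = 0.0820). DNMT1 and UHRF1 are also stored in oocytes, and the part of oocyte transcripts in their levels was not tested.

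Other genes of these pathways were read from 7 lists, whose counts stand beside the 28.3% of all genes that passed in serum and the 5.82% that passed in serum-free embryos. A list with a share near these is no result about the list, and no list was tested as a set. Median changes of the 7 lists in serum ran from -0.37 for the S-adenosylmethionine cycle to 0.64 for other methyl-CpG readers, against 0.01 over all genes. Of 7 tested partners of maintenance and de novo methylation, whose median change was 0.56, 3 were higher in serum and none lower. They were the deubiquitinase USP7, which stabilises DNMT1 and UHRF1 (log2 1.27, SE 0.31, adjusted p = 0.00550), the chromatin remodeller HELLS (0.59, SE 0.22, adjusted p = 0.0470) and the replication clamp PCNA (0.40, SE 0.13, adjusted p = 0.0323). In serum-free embryos 1 of 7 was higher, the RNA methyltransferase TRDMT1 (0.79, SE 0.23, adjusted p = 0.0445).

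Of 10 tested genes of demethylation and base excision repair, POLB, the polymerase that fills the gap, was higher in serum (0.75, SE 0.25, adjusted p = 0.0304). CXXC5, a CXXC domain protein that binds TET2, was lower (-1.29, SE 0.31, adjusted p = 0.00511), and the other 8 did not pass. In serum-free embryos 2 of 11 were lower, CXXC5 (-1.24, SE 0.31, adjusted p = 0.0245) and PARP1, which binds DNA breaks (-0.68, SE 0.17, adjusted p = 0.0228). None of 3 other methyl-CpG readers passed in either medium.

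The NuRD complex, in which MBD3 sits, had 5 of 9 tested subunits changed in serum, in both directions. The ATPase CHD4 (0.67, SE 0.16, adjusted p = 0.00565), the deacetylase HDAC2 (0.76, SE 0.18, adjusted p = 0.00471) and RBBP7 (0.91, SE 0.21, adjusted p = 0.00412) were higher. The related deacetylase HDAC1 (-0.66, SE 0.13, adjusted p = 0.00122) and MTA3 (-0.52, SE 0.16, adjusted p = 0.0179) were lower. None of the 9 passed in serum-free embryos. Among 8 tested partners of TRIM28, ATF7IP, which binds SETDB1 (1.01, SE 0.33, adjusted p = 0.0270), and the heterochromatin protein CBX5 (1.00, SE 0.21, adjusted p = 0.00197) were higher in serum, and none passed without serum.

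Of 9 tested genes of the S-adenosylmethionine cycle, which supplies the methyl group, the methionine synthase MTR was higher (0.96, SE 0.34, adjusted p = 0.0409) and AHCYL2 lower (-1.32, SE 0.22, adjusted p = 0.000448) in serum. In serum-free embryos MAT2B, a subunit of methionine adenosyltransferase, was lower (-0.61, SE 0.12, adjusted p = 0.00477). Of 13 tested replication genes, PCNA and the cyclin CCNA2 (0.66, SE 0.15, adjusted p = 0.00331) were higher in serum. The helicase subunits MCM5 (-0.94, SE 0.21, adjusted p = 0.00384) and MCM7 (-0.70, SE 0.19, adjusted p = 0.0115) were lower, and none of 12 passed without serum.

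Without the 4 serum embryos that stood apart, 14.8% of genes passed against in vivo derived embryos, and the calls of USP7, HELLS, PCNA, POLB, HDAC2, MTA3, ATF7IP and MTR were lost. The 7 lists then had 0 of 8, 1 of 10, 0 of 3, 3 of 9, 1 of 8, 2 of 9 and 4 of 13 tested genes passing, in the order given. Between the media, 1 of 7, 1 of 11, 0 of 3, 2 of 9, 2 of 8, 1 of 8 and 1 of 13 passed, beside 16.3% of all genes. They were USP7 (1.30), POLB (0.77), HDAC2 (0.81), HDAC1 (-0.37), ATF7IP (1.21), DAXX (0.55), AHCYL2 (-1.04) and CCNA2 (0.56), as log2 of serum over serum-free, and without the 4 embryos no gene of the 7 lists passed.

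**Figure D5:**
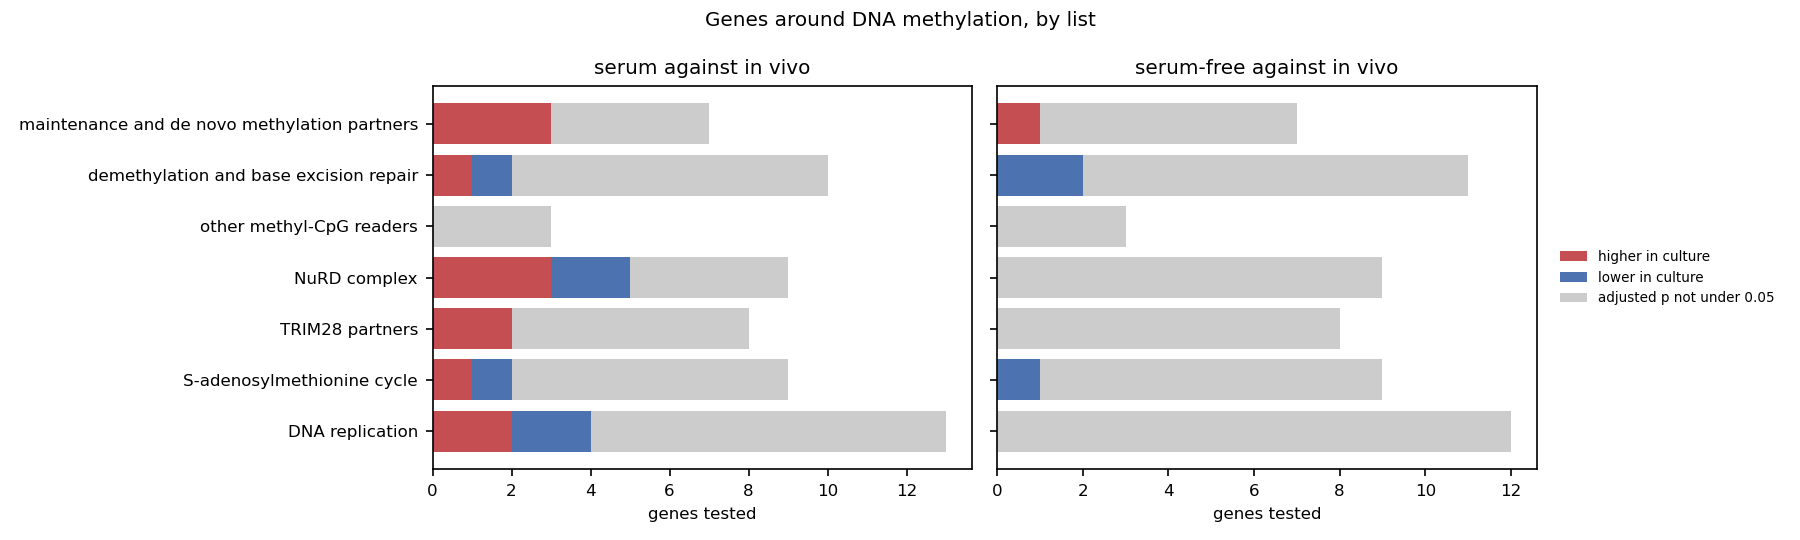
Number of tested genes in 7 lists around DNA methylation that were higher, lower or not called (adjusted p not under 0.05) in serum (left) and in serum-free embryos (right) against in vivo derived embryos, as stacked bars from 0. The NuRD list had 5 of 9 genes called with serum and none without, and 4 lists had none called in serum-free embryos.

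The gene whose expression was most like that of each member over the 24 embryos was found by Pearson correlation of log2(CPM + 1), as a description over embryos that share 3 conditions. For DNMT3A it was ILK (r = 0.965), for DNMT3B EPCAM (r = 0.935) and for TDG GALNT7 (r = 0.919). TRIM28 was most like PCBP2 (r = 0.887), UHRF1 most like PCP4L1 (r = 0.820), TET1 most like CCDC14 (r = 0.777), DNMT1 most like SRI (r = 0.768) and TET2 most like GPR108 (r = 0.677). For TET3 and MBD3, with few counts, the genes were STARD10 (r = 0.685) and CPSF1 (r = 0.600). The most opposite genes were UBL5_2 for DNMT3A (r = -0.927), TIMM23 for TDG (r = -0.889), ZMYM1 for UHRF1 (r = -0.884), ACTR2 for TRIM28 (r = -0.883) and SNRNP25 for DNMT3B (r = -0.875). They were BORA for MBD3 (r = -0.784), TMEM60_2 for TET1 (r = -0.723), MIA3 for DNMT1 (r = -0.694), ZNF19 for TET3 (r = -0.681) and PRKCQ for TET2 (r = -0.636). The table lists UBL5 and TMEM60 more than once, told apart by a suffix, and whether such entries share reads was not checked, so these matches are uncertain.

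Within a condition, 3 pairs of members that act together were correlated over the 8 embryos, in 9 relations. None passed a two-sided exact permutation test after adjustment. DNMT3A and DNMT3B in serum came nearest, with a Spearman rho of 0.833 (exact permutation p = 0.0154, adjusted 0.138) and a Pearson r of 0.29 (exact permutation p = 0.50, adjusted 0.750). Without the 2 embryos farthest from the median of DNMT3A, r was 0.870, so the value depends on those embryos. For DNMT1 and UHRF1, r was -0.41 in vivo, 0.41 in serum and 0.12 in serum-free embryos, with exact permutation p-values of 0.302, 0.299 and 0.790, an adjusted p of at least 0.750 and Spearman's rho of -0.57, 0.38 and 0.24.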

How the data were processed

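RNA of 24 single bovine early blastocysts was sequenced as paired-end reads from amplified cDNA without molecular identifiers and without strand, so reads of a gene and of an overlapping antisense gene cannot be told apart. The authors trimmed the reads, mapped them with the CLC Genomics Workbench to the bovine genome (build UMD 3.1 in the submitters' processing notes) and deposited, for each embryo, the raw exon counts of uniquely mapped fragments by gene, not normalized. Between 3253051 and 9000447 counts were available per embryo, and limits and shares of counts cover counting error only. All 24 value columns were matched to an embryo by name, 0 were left unmatched, and groups came from the labelled growth condition and sex.

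Differences were tested by the quasi-likelihood test of edgeR 4.0.16 (R 4.3.3) after TMM normalization, with the embryos of the compared groups alone in a fit. Testing required at least 15 counts in every embryo of at least 1 group. The p-values were adjusted by the Benjamini-Hochberg method over all genes tested, and a gene passed at an adjusted p under 0.05, with the 2-fold limit of the study given beside the comparisons of pooled sexes. Approximate standard errors were derived from the F statistic, and intervals are 95% intervals. CPM came from 1 normalization over the 24 embryos (8710 genes), with a pseudocount of 1 on the log2 scale. The test was tested on simulated data. The members and lists were chosen with earlier results of these data known. Named were the 10 members, DDX3Y and XIST, and the most like and most opposite gene of each member. Up to 3 passing genes per direction were named from each list around DNA methylation, in each comparison with the sexes pooled. Some passing cell type markers were also named. TFAP2C, TEAD4, CDX2, SOX2, KLF4, ESRRB, POU5F1, NANOG, SOX17, GATA6, RSPO3, BMP15 and GDF9 were named after their values were seen. Of 130 genes listed, 125 were found by symbol.

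Alternatives were edgeR's exact test (used in the study), DESeq2 1.42.0, its size factors in edgeR, no filter, 15 counts in every embryo of both groups, a fit over all 24 embryos, counts thinned to the depth of the shallowest library, a covariate for sex, a replicate block and leaving out each embryo. The fits without B2, B3, B5 and B7, or those of them in the comparison, were chosen after seeing the data. Comparing serum with serum-free embryos was not a comparison of the study. Gene positions, lengths and sequences were not used here.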

Additional observations from a re-analysis of the deposited data

Results flagged for a closer look

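In 30 sets of 8 embryos (10 genes in 3 conditions) the highest and lowest value was set against its nearest neighbour, and 3 values had a gap larger than a share of 0.526 of the whole range, Dixon's 95% limit for 8 values. Chance alone exceeds that limit in about 1 of 20 sets. UHRF1 in serum embryo B2 was at 43.3 CPM, the nearest embryo being at 28.6. TET1 in the same embryo was at 228 CPM, the nearest being at 365, and B2 had the lowest correlation with the other embryos. DNMT3A in serum-free embryo C7 was at 598 CPM, the nearest being at 346. Without C7 DNMT3A passed in serum-free embryos (log2 -0.91, adjusted p = 0.00398).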

How the results depend on the processing

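In serum against in vivo derived embryos, UHRF1, DNMT3A, DNMT3B, TDG and TRIM28 passed in each alternative in which they were tested, with adjusted p-values up to 0.0491. Asking for 15 counts in both groups left 4 members tested, and 2 passed. DNMT1 lost its call in 5 of 10 alternatives (adjusted p up to 0.10). Without 1 embryo 5 to 6 members passed. In serum-free embryos 1 passed with a replicate block and 2 to 3 without 1 embryo. Serum against serum-free embryos was the least stable, with 5 members passing and 2 with no filter. With 15 counts in both groups 2 passed, and DNMT3A, DNMT3B and TDG were not tested. That comparison had 2 without B2, B3, B5 and B7, and 2 to 5 without 1 embryo. There the change of TET1 turned to 0.0191 with no filter, 0.0232 in the fit over 24 embryos, 0.00775 with sex as a covariate, 0.0707 with the block, 0.0890 without the 4 embryos and between -0.0508 and 0.0950 without 1 embryo, and that of DNMT1 to 0.0391 without the 4. TDG in serum-free embryos lay between -0.30 and 0.0058 without 1 embryo, turning without C1 or C4. The cause was not tested.

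Within a sex, serum males had 2 members passing with 15 counts in both groups, where DNMT3B and TDG were not tested. Serum males had 3 to 4 without 1 embryo. Serum females had 2 by the exact test, 3 by DESeq2, 3 in the fit over 24 embryos, 4 without B2 and B3 and 0 to 2 without 1 embryo. Serum-free males had 0 to 3 without 1 embryo and serum-free females 1 by the exact test, 2 by DESeq2, 1 with no filter and 0 without 1 embryo. Male against female serum embryos had 1 in the fit over 24 embryos. Embryos share numbers in the labels, but the deviations of same-numbered embryos correlated at no more than 0.0924, with 0 pairs over 0.1, so the numbers were not taken to pair embryos. With the replicate block the members passing were 5 (serum, 1079 genes against 2074), 1 (serum-free, 173 genes against 426), 0 (serum against serum-free, 29 genes against 1171) and 0 (serum-free males, 10 genes against 135).

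Genes passing in all moved by over 1.5 times in other settings too: 1153 in serum without the 4 embryos, 666 by DESeq2, 260 with no filter and 103 over 24 embryos in serum-free embryos, 115 without the 4 and 1893 over 24 embryos between the media, and in serum females 491 by the exact test, 716 by DESeq2 and 928 without B2 and B3 against 34. Without B5 and B7, 806 genes passed in serum males against 1471. TET3 and MBD3, tested only with no filter, did not pass (adjusted p of 0.318 and 0.916 with serum, 0.867 and 0.983 without).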
